A study of Mus musculus with 7 samples.

Results

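Stretches of 5-methylcytosine (5mC) that lie in genes for long non-coding RNAs (lncRNAs), well apart from protein-coding genes, made up 9349 of the 130882 autosomal active regions in cultured mouse hippocampal neurons (7.14%), and 133337 active regions were listed on all chromosomes. An active region is the union of overlapping called intervals of the 6 libraries. A region was taken when it overlapped a lncRNA gene of the RefSeq GRCm38.p6 annotation and its nearest protein-coding gene body was 5 kb or more away. These regions are called lncRNA-only regions. They were compared with 46128 intergenic regions, which overlap no lncRNA gene and keep the same distance from protein-coding genes, and with 68506 regions that overlap protein-coding genes. A further 6899 autosomal regions lay within 5 kb of a protein-coding gene.

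The neurons came from C57BL/6J embryos of stage E18.5 and were kept for 11 days in culture, with the antimitotic AraC added at medium changes in both groups. In the KCl group (3 libraries) the cultures received 55 mM KCl, which depolarises neurons, for 4 h, and the untreated group (3 libraries) received none. DNA was enriched with an antibody against 5mC and sequenced (MeDIP-seq), and a pooled input library was not analysed here. Separate cultures or animals are not recorded for the replicate libraries, and p-values therefore cover a spread among libraries that may be technical. In comparisons between classes they do not cover the spread among the genes or regions compared, which are the same in every library.

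LncRNAs are transcripts that are not translated, and many act in the nucleus, on the chromatin of neighbouring genes or as hosts of small RNAs. Methylation of CpG sites at a promoter usually goes with a silent gene, whereas most CpG sites of the genome outside CpG-rich promoters are methylated in differentiated cells. An antibody against 5mC recovers DNA in proportion to both the methylation and the number of CpG sites, so a region without signal can be unmethylated or poor in CpG. Summit height, in the units deposited, is the peak of the enrichment signal in a region, and read depth per library is unknown.

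The sequences that carry the clearest difference are promoter windows, which run from 250 bases before an annotated start to 50 bases after it. The first 4 below are the windows wholly inside an active region that had the highest mean summit height among lncRNA promoters 5 kb or more from protein-coding genes. They are shown because they are both CpG-rich and enriched, which was rare at protein-coding promoters. CpG sites are in capitals, and sequences and strands are those of RefSeq GRCm38.p6. Gm35420 lies at chr11:104030230-104030529 (plus strand, 20 CpG sites), 4930563M20Rik at chr8:116801363-116801662 (minus strand, 32 sites), Gm32319 at chr10:117608210-117608509 (minus strand, 14 sites) and 4930555G21Rik at chr13:53648335-53648634 (plus strand, 14 sites).
Gm35420: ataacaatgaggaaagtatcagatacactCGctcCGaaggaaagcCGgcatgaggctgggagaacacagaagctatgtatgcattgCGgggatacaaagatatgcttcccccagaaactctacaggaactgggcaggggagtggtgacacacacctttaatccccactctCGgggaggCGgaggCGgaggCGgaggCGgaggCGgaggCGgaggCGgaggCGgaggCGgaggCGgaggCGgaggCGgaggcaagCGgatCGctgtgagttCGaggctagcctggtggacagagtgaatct
4930563M20Rik: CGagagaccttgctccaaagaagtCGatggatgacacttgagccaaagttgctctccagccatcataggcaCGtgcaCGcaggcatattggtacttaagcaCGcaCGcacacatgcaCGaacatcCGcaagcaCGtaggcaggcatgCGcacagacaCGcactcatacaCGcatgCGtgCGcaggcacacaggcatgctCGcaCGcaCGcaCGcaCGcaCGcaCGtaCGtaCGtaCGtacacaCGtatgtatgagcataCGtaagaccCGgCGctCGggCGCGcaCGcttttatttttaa
Gm32319: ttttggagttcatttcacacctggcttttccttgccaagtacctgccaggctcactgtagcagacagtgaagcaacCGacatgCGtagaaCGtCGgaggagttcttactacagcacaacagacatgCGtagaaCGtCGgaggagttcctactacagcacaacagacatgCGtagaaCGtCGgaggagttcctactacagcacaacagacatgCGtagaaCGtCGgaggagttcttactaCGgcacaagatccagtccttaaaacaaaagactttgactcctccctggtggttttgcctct
4930555G21Rik: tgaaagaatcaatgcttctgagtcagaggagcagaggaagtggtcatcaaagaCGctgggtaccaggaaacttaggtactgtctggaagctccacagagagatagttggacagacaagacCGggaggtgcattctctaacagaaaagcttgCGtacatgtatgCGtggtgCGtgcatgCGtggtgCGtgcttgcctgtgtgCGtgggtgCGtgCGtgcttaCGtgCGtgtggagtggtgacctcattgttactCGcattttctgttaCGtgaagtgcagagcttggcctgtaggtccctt
Snhg5, a host gene of small nucleolar RNAs, and Mirc35hg, a miRNA host gene, are shown for contrast. They have the most CpG sites among the promoters of named and host lncRNA genes that carried no region in any library. Their windows lie at chr9:88522848-88523147 (Snhg5, minus strand, 36 sites) and chr6:30174076-30174375 (Mirc35hg, minus strand, 35 sites).
Snhg5: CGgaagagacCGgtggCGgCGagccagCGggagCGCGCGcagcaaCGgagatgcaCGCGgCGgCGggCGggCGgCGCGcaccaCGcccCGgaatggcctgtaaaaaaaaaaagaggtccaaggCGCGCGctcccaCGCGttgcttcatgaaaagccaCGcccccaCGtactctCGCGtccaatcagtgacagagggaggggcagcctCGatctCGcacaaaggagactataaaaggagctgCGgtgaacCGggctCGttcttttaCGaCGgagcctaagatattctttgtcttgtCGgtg
Mirc35hg: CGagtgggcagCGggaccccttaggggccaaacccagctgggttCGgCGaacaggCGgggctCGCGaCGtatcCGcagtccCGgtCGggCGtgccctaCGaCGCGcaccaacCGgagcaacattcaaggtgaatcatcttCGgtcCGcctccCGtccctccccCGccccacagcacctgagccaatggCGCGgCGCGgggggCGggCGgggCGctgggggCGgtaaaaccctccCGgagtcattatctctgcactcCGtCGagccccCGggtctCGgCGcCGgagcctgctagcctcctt
In the Gm35420 window CGGAGG recurs as a tandem repeat, and all 4 enriched windows hold at least 1 word of 12 bases with a CpG that occurs again without overlap. Neither Snhg5 nor Mirc35hg holds such a word. Among lncRNA promoters with 10 or more CpG sites, 15 of 115 with a region held one (13.0%) and 22 of 393 without a region did (5.60%). At protein-coding promoters with 10 or more CpG sites the shares were 3.97% of 252 with a region and 7.50% of 11382 without. How reads from repeats were placed is not given in the sources used here, and its part in these heights was not tested.

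Summit heights over these enriched promoters were high in every library. The region over the Gm35420 promoter had heights of 148, 112 and 68 in the KCl libraries and 124, 135 and 94 in the untreated libraries. That of 4930563M20Rik had 107, 120 and 81 with KCl and 112, 145 and 95 without. That of Gm32319 had 116, 87 and 47 with KCl and 117, 111 and 88 without. In each of these the groups overlapped, and KCl replicate 3 was the lowest of the 6 libraries. The region of 4930555G21Rik followed the same pattern, with 89, 73 and 40 in the KCl libraries and 86, 96 and 54 in the untreated libraries.

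LncRNA promoters 5 kb or more from protein-coding genes carried a 5mC region more often than protein-coding promoters. By CpG number, the difference in percentage points was widest at 10 to 14 sites. Of 6493 lncRNA promoter windows 5 kb or more from protein-coding genes, 472 (7.27%, in 431 genes) overlapped an active region, against 611 of 20085 protein-coding windows (3.04%). Only 7.82% of the lncRNA windows held 10 or more CpG sites, while 57.9% of the protein-coding windows did. At 10 or more sites 115 of 508 lncRNA windows (22.6%) and 252 of 11634 protein-coding windows (2.17%) had a region. With 1 promoter per gene these shares were 22.7% and 2.19%. CpG number was not matched within this range, and lncRNA promoters nearer than 5 kb to protein-coding genes were left out. Of the windows with 10 or more sites, 324 lncRNA windows held 10 to 14, and 7451 protein-coding windows held 20 or more. At 10 to 14 sites alone, 26.2% of lncRNA windows and 6.28% of protein-coding windows had a region.

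CpG-rich windows, those with 10 or more sites, carried a region more often at lncRNA than at protein-coding genes in each library taken alone. Regions called in that library covered 19.7%, 14.4% and 8.86% of CpG-rich lncRNA windows in the KCl libraries and 17.9%, 18.3% and 15.4% in the untreated libraries. Over all 6 libraries the mean was 15.7 ± 3.91% for lncRNA windows and 1.65 ± 0.249% for protein-coding windows (SD, n = 6). The difference of 14.1 percentage points was positive in 6 of 6 libraries (exact sign-flip test, two-sided p = 0.031, the smallest possible, adjusted p = 0.0469 over 6 comparisons between classes). It was 8.06 points, with the same number of highest intervals taken from each library. With libraries of the same replicate number averaged into 3 pairs, the exact sign-flip p was 0.25, the smallest that 3 pairs allow, so none of the comparisons between classes can pass when the numbers are taken as pairs. This comparison was added after the data had been seen. With KCl the lncRNA share was 14.3 ± 5.41%, against 17.2 ± 1.60% in the untreated libraries (SD over 3 libraries each; two-sided exact permutation p = 0.6).

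Across CpG content, the share of lncRNA promoters with a region was highest at intermediate numbers of sites. It was 2.19% at 0 or 1 site, 4.01% at 2 or 3, 6.96% at 4 or 5 and 13.1% at 6 to 9 sites. It reached 26.2% (85 of 324 windows) at 10 to 14 sites, then stood at 21.5% of 93 windows at 15 to 19 sites and at 11.0% of 91 windows at 20 or more. Protein-coding promoters peaked earlier and lower, at 8.91% of 2143 windows with 6 to 9 sites, and stood at 6.28% at 10 to 14 and 0.926% at 20 or more sites. LncRNA promoters with a region had a median of 6 CpG sites, those without had 3, and all protein-coding promoters had 14.

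**Figure D1:**
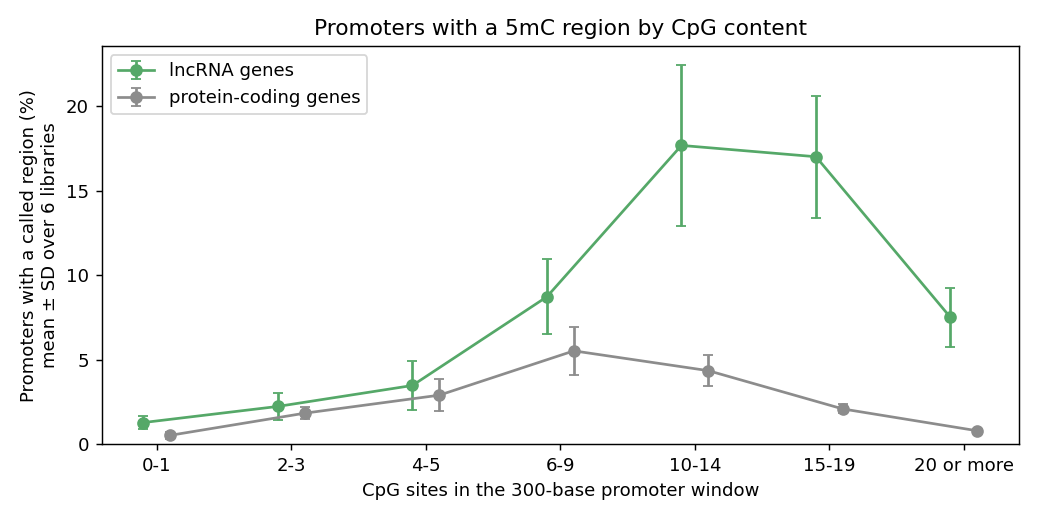
Share of promoter windows (%) with a region called in a library, by the number of CpG sites in the 300-base window, for lncRNA genes (green) and protein-coding genes (grey). Points are means and bars SD over 6 libraries; the lncRNA mean at 10 to 14 sites is 17.7%, against 4.36% for protein-coding promoters.

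Around the start sites the profiles of lncRNA and protein-coding genes ran in opposite directions. The centres of active regions were densest in the first 500 bp of lncRNA genes, at 115.5 per Mb, and stood at 97.7 per Mb in the 500 bp before the start. All other 500-bp bins within 10 kb of a lncRNA start held between 63.2 and 94.3 per Mb. Protein-coding genes had their lowest density, 31.6 per Mb, in the 500 bp before the start. Bins of nearby starts share regions, so this profile was described and not tested.

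**Figure D2:**
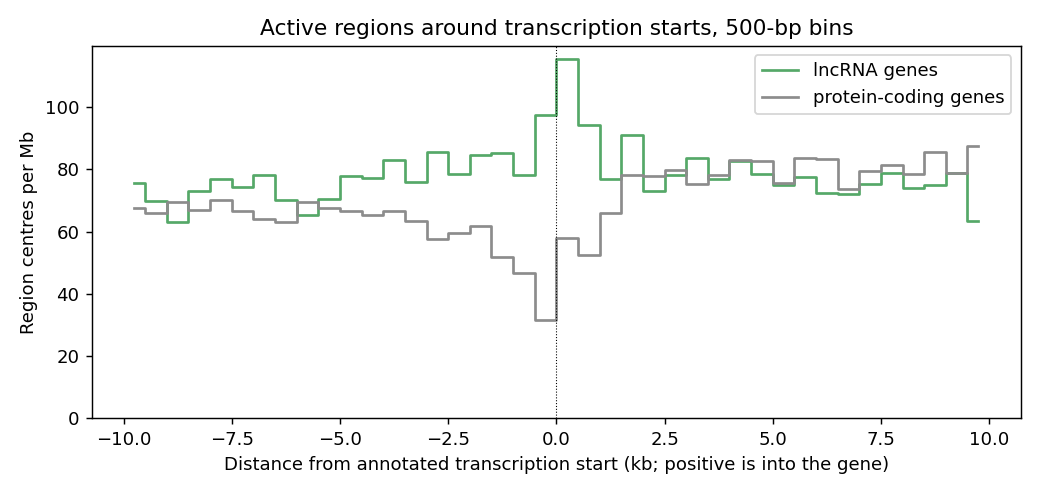
Centres of active regions per Mb in 500-bp bins by distance (kb) from the annotated start, for lncRNA genes 5 kb or more from protein-coding genes (green) and for protein-coding genes (grey), all 6 libraries together. The lncRNA line peaks at 115.5 per Mb just inside the gene, where the protein-coding line is at 58.0 per Mb.

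Short words for factor binding sites were counted in the promoter windows on both strands. The E-box word CACGTG was present in 9.11% of lncRNA windows with a region, 5.25% of those without and 7.89% of all protein-coding windows. The cAMP-response word TGACGTCA stood in 1.06% of lncRNA windows with a region, 0.747% of those without and 2.30% of protein-coding windows. TCCCGC was found in 8.26%, 4.62% and 26.3% of these groups in the same order. Each of these words contains a CpG, and lncRNA windows with a region held more CpG sites than those without (median 6 against 3). The shares were not compared at equal CpG number. A match describes letters in the window and not a bound factor.

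Most lncRNA-only regions were short and low, and a minority were seen in every library. Of the 9349 regions, 1777 (19.01%) had a call in every library and 2857 (30.6%) in 1 library. The median length was 355 bp, the middle of the distribution ran from 285 to 444 bp, and 28 regions (0.299%) reached 1 kb. Regions called in all 6 libraries had a median height of 23.8, and those called in 1 library had 11.0. A height of 50 or more was reached by 141 regions (1.51%), against 1.43% of intergenic regions and 2.18% of regions in protein-coding genes.

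The choice of members left some mixed cases. Of the 9349 regions, 447 reached partly outside lncRNA genes, 480 overlapped several lncRNA genes and 140 also overlapped a gene of another biotype. The median distance to a protein-coding gene was 60374 bp, and 3309 regions (35.4%) lay 100 kb or more away. At the distance limit, 83 regions at 5 to 5.5 kb had a median height of 12 with 14.5% called in all 6 libraries, and 89 regions in lncRNA genes at 4.5 to 5 kb had 13.2 and 20.2%.

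The libraries differed widely within the KCl group. They held 93470, 60949 and 34834 intervals with KCl and 87151, 87302 and 72947 without. The KCl libraries called 68.9%, 42.2% and 23.9% of the lncRNA-only regions, and the untreated libraries 64%, 61.7% and 53.6%. The groups overlapped, since KCl replicate 1 called the most and KCl replicate 3 the fewest. The mean was 45.0 ± 22.6% with KCl and 59.7 ± 5.48% without (SD over 3 libraries each). The difference was -14.8 percentage points (two-sided exact permutation p = 0.4, smallest possible 0.1, adjusted p = 0.6 over 3 comparisons). It was -29.7 without KCl replicate 1, -4.23 without KCl replicate 3 and -1.62 with the same number of highest intervals taken from each library.

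Heights followed the same order as the interval numbers. Over regions called in all 6 libraries the median height was 29, 22 and 15 in the KCl libraries and 26, 28 and 24 in the untreated libraries. The means were 22.0 ± 7.0 and 26.0 ± 2.0 in that order of groups (SD over 3 libraries each). The difference was -4.0 (two-sided exact permutation p = 0.5, adjusted p = 0.6). Leaving out KCl replicate 3 gave -0.167, and leaving out KCl replicate 1 gave -7.67. The part of interval number and of depth in these differences was not tested.

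**Figure D3:**
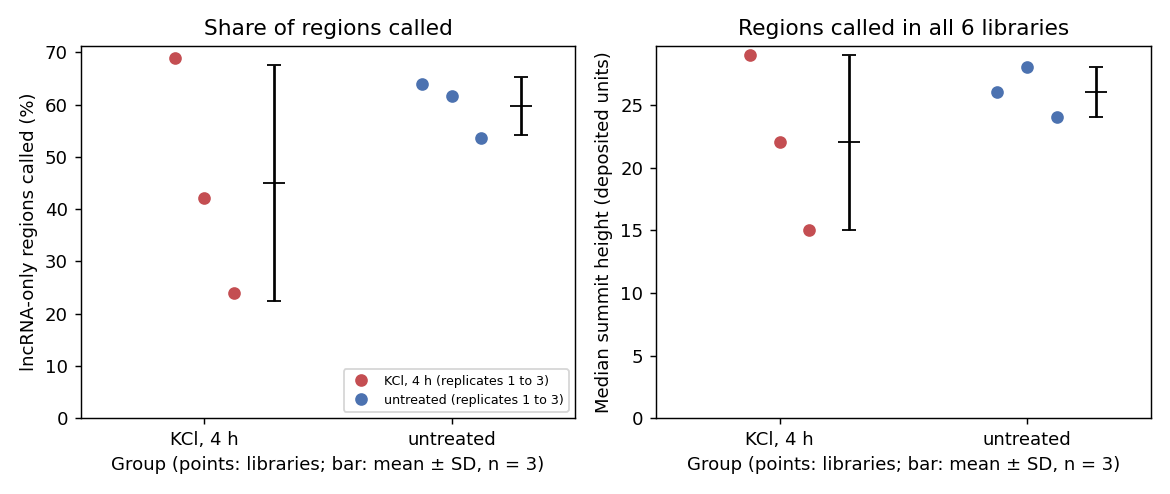
Left, share of the 9349 lncRNA-only regions called (%) in each KCl and untreated library. Right, median summit height (deposited units) of those called in all 6 libraries; points are libraries and bars mean ± SD, n = 3, and KCl replicate 3 is the lowest in both panels at 23.9% and 15.

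Set against the other classes within each library, lncRNA-only and intergenic regions differed by under 1 point in the share called, and the test was not passed. A library called on average 52.4 ± 16.8% of lncRNA-only regions and 52.1 ± 16.7% of intergenic regions (SD, n = 6), a difference of 0.296 percentage points that was positive in 4 of 6 libraries (exact sign-flip p = 0.125, two-sided, adjusted p = 0.15). It was 0.755 points at 20 kb or more from protein-coding genes (exact p = 0.031) and -0.0229 for regions lying mostly inside lncRNA genes (exact p = 0.844). The median height of called regions was 15.2 ± 0.753 in lncRNA genes and 14.7 ± 0.516 between genes (exact sign-flip p = 0.25). Compared with regions in protein-coding genes, of which 55.5 ± 16.0% were called, the lncRNA-only share differed by -3.11 points and was lower in 6 of 6 libraries (exact sign-flip p = 0.031, adjusted p = 0.0469; over 3 pairs 0.25). With the same number of highest intervals from each library the difference was -2.55 points (exact p = 0.156). All these shares refer to regions that at least 1 library had called.

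LncRNA gene bodies held more 5mC regions per length than intergenic sequence as a whole, and slightly fewer than intergenic sequence close to them. The 157.2 Mb of lncRNA sequence 5 kb or more from protein-coding genes held 58.4 region centres per Mb, against 41.4 per Mb over 1122.9 Mb of intergenic sequence, a ratio of 1.41. Per library the lncRNA density was 40.1, 24.4 and 13.7 per Mb with KCl and 37.2, 35.8 and 31.2 without. The intergenic density was 28.5, 17.5 and 9.80 per Mb in the KCl libraries and 26.1, 25.6 and 22.1 in the untreated libraries. The log2 ratio of lncRNA to intergenic density averaged 0.49 ± 0.01 (SD, n = 6) and was positive in 6 of 6 libraries (exact sign-flip p = 0.031, two-sided, adjusted p = 0.0469, and 0.25 over 3 pairs). This adjusted p would exceed 0.05 without the comparisons that were added after the data had been seen.

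Where intergenic sequence was limited to the 371.1 Mb within 50 kb of a lncRNA gene, its density was 60.6 per Mb and the log2 ratio averaged -0.08 (exact sign-flip p = 0.031). The direction of the density difference therefore depended on which intergenic sequence was taken, and this second definition was added after the data had been seen. Protein-coding gene bodies held 69.3 per Mb. Assembly gaps were not removed from these lengths. By chromosome, the ratio of lncRNA to all intergenic density ranged from 1.14 on chromosome 18 to 1.78 on chromosome 6, and the number of lncRNA-only regions from 206 on chromosome 19 to 702 on chromosome 2.

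The 10 regions with the highest mean height were led by a copy of ribosomal DNA. The region at chr17:39842872-39848870, 5999 bp long, overlaps AY036118 with 12.7% of its length and had heights of 421, 325 and 295 with KCl and 362, 395 and 280 without. Ribosomal DNA exists in many copies, so its height is uncertain as a value of this locus. Next was a region in the predicted gene Gm33838 (chr9:35304985-35305754), with 267, 214 and 203 in KCl libraries and 224, 263 and 205 in untreated libraries. A region in Plut (chr5:147257906-147258506), a lncRNA gene beside the pancreatic transcription factor gene Pdx1, had 173, 134 and 101 with KCl and 140, 171 and 117 without. In none of the 10 regions did the groups separate. The others lay in Gm36876, Gm34563, 1700010J16Rik, Gm28068, Gm15679, 4930429H19Rik and Gm40684, and 1700010J16Rik and Gm40684 covered only 10.8% of their regions each.

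**Figure D4:**
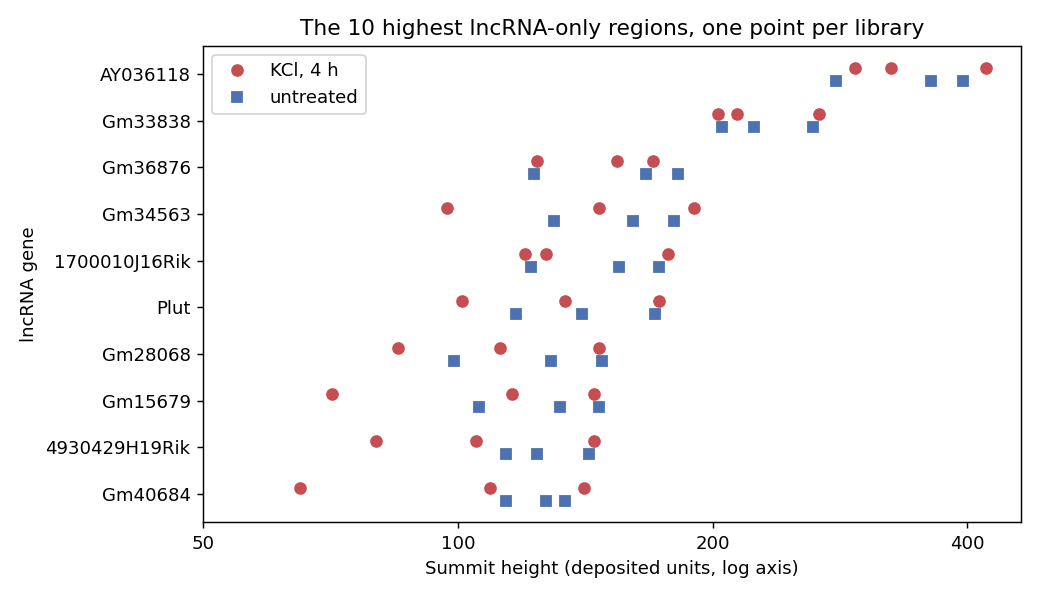
Summit heights (deposited units, log axis) of the 10 lncRNA-only regions with the highest mean height, by lncRNA gene, with 1 point per library. KCl libraries are circles and untreated libraries squares; the groups overlap in each row, and the top row, AY036118, spans 280 to 421.

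Imprinted lncRNA genes are read from 1 parental chromosome. Of 12 symbols, 9 were in RefSeq, and 7 of these genes held 20 lncRNA-only regions, 4 of them called in all 6 libraries (20%, against 19.01% of all lncRNA-only regions). H19, a maternally expressed RNA that is also the precursor of miR-675, had 2 regions, both called in every library. The one at chr7:142576582-142577190 had heights of 52, 32 and 25 with KCl and 37, 58 and 36 without. The other, at chr7:142577645-142578536, had 50, 40 and 20 with KCl and 39, 47 and 41 without, and 56.3% of its length lay inside the gene. In both H19 regions the groups overlapped.

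The first H19 region contains both arms of the mature miRNA, which RefSeq places on the minus strand at chr7:142577112-142577133 (5p arm) and chr7:142577078-142577099 (3p arm). They are shown because no other mature miRNA lay in a lncRNA-only region called in all 6 libraries. The seed, bases 2 to 8, is in capitals.
mmu-miR-675-5p: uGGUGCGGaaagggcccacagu
mmu-miR-675-3p: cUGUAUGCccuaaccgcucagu
Snhg14, the long paternally expressed transcript that runs over small nucleolar RNA genes and antisense to Ube3a, had the highest region of the imprinted group. At chr7:59960726-59961324 the heights were 110, 74 and 58 with KCl and 109, 102 and 83 without. This was 1 of 7 regions in Snhg14 and the only one called in all 6 libraries. Meg3, a maternally expressed RNA of the Dlk1-Dio3 locus, had 4 regions, and its neighbours Rian and Mirg, hosts of small RNAs, had 2 each. None of these 8 was called in all 6 libraries. The Rian region at chr12:109636320-109636859 came closest, with 29 and 20 in KCl replicates 1 and 2, no call in KCl replicate 3, and 24, 36 and 26 in the untreated libraries.

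Most regions in neural lncRNA genes were not called in every library, as was the case for lncRNA-only regions as a whole. Of 22 symbols found in RefSeq, 20 were autosomal genes of lncRNA biotype, and 12 of those genes held 87 regions. Of these, 11 (12.6%) were called in all 6 libraries, against 19.01% of all lncRNA-only regions. Sox2ot, within which the neural progenitor gene Sox2 lies, had 25 over 117613 bp, of which 3 were called in every library. Otx2os1, beside the forebrain and midbrain factor gene Otx2, had 11 regions over 124061 bp, with 4 in every library. Its highest, at chr14:48754648-48755230, had 67, 33 and 26 with KCl and 52, 40 and 52 without, so the groups overlapped.

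Nkx2-2os, next to the ventral neural tube factor gene Nkx2-2, had 7 regions. Its region at chr2:147269797-147270320 had 30, 24 and 15 in the KCl libraries and 36, 38 and 32 in the untreated libraries. Here every KCl height was below every untreated height, as in 5.12% of lncRNA-only regions tested and 4.14% of all regions tested. This region did not pass the test for a height change (limma, adjusted p = 0.932). Tunar, a lncRNA of pluripotent and neural cells, had 7 regions, and Rmst, a lncRNA of neuronal differentiation, had 11. One of each was called in all 6 libraries. The Tunar region at chr12:105371250-105371758 had 33, 26 and 16 with KCl and 28, 31 and 28 without. Miat and Mir9-3hg, both known from brain and wholly over 5 kb from protein-coding genes, held no lncRNA-only region. The same was true of C130071C03Rik, Mir124a-1hg, Oip5os1 and Pantr2 in this list. Of all lncRNA genes at that distance, 50.2% held a region.

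Among lncRNA genes of nuclear structure, stress and growth, 7 genes held 44 regions. Of these, 9 were called in all 6 libraries (20.5%, against 19.01% of all lncRNA-only regions). Lncenc1, a lncRNA of naive embryonic stem cells, had the highest of these at chr13:97444262-97445195, with 61, 45 and 38 with KCl and 61, 59 and 60 without. Pvt1, downstream of Myc, had 12 regions, and that at chr15:62217941-62218661 had 62, 48 and 37 with KCl and 52, 48 and 38 without. Lncpint, a lncRNA induced by p53, also had 12 regions, 4 of them in every library. Malat1, Dancr and Norad, which lie wholly over 5 kb from protein-coding genes, held none. They are 6983, 1278 and 4917 bp long, against a median of 9053 bp for lncRNA genes at that distance. Neat1, the scaffold of paraspeckles, held 1 region, which was not called in all 6 libraries.

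Developmental lncRNA genes outside brain held 20 regions in 5 genes, including 9 in Tbx3os1, beside the limb and heart factor gene Tbx3. Host genes of miRNAs held 27 regions in 6 of 14 genes, host genes of small nucleolar RNAs 9 regions in 3 of 18 genes, and pluripotency-associated transcripts (Platr) 26 regions in 9 of 16 genes. Opposite-strand and antisense symbols held 173 regions in 33 of 218 genes. The share called in all 6 libraries was 20%, 22.2%, 11.1%, 23.1% and 20.2% in these 5 groups in the order given. Over all lncRNA-only regions it was 19.01%. The gene totals include genes that overlap or lie near protein-coding genes, where the rule admits few or no regions. Of all 12408 autosomal lncRNA genes, 4026 held a lncRNA-only region, and 6279 lay wholly 5 kb or more from protein-coding genes. Predicted Gm genes held most lncRNA-only regions, 7238, with 18.8% called in every library.

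RIKEN clones drawn from testis libraries carried regions at their ends a little more often than other RIKEN clones. Of 474 testis-clone genes lying wholly 5 kb or more from protein-coding genes, 141 (29.7%) carried one at 1 kb or less from an end, against 94 of 346 other RIKEN genes (27.2%) and 31.9% of all 6279 such lncRNA genes. Per library the shares averaged 18.2 ± 5.28% for testis clones and 16.8 ± 4.94% for the others (SD, n = 6). The difference of 1.42 points was positive in 6 of 6 libraries (exact sign-flip p = 0.031, two-sided, adjusted p = 0.0469, and 0.25 over 3 pairs). Here too the adjusted p would exceed 0.05 without the comparisons that were added after the data had been seen. Libraries are the unit of this test, which reads the same genes in each, so a difference between the gene groups beyond the spread among genes was not tested. The share was 32.4% in the 5459 such lncRNA genes that are not RIKEN clones, above both groups. The difference between testis clones and other RIKEN clones was 3.30 points within 250 bp of an end (exact sign-flip p = 0.031). It was 0.413 points at heights of 12 or more (exact p = 0.406) and 0.987 points with equal interval numbers (exact p = 0.0625).

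Regions were spread over many genes. Of 12408 autosomal lncRNA genes 4026 held a lncRNA-only region, and 1971 of these held 1. The 105 genes with 10 or more had a median length of 124061 bp and held 1471 regions (15.7% of the 9349). A930011G23Rik had 41 over 431817 bp, 2610307P16Rik 37, Gm30382 34, and Gm38475 and Gm2164 26 and 25. Support varied among them, since every library called 11 of the 26 regions in Gm38475 and 0 of the 24 in Gm20757. Per length, Gm52926 led with 13.7 regions per 10 kb, on 3 regions in 2184 bp, followed by Gm40101, Gm35058, 6720468P15Rik and Gm41063.

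No lncRNA-only region passed the test for a height change with KCl. Of 20537 regions of the series called in all 6 libraries with a mean height of at least 18.7, 1327 were lncRNA-only, and none of them or of the whole table passed at an adjusted p of 0.05 in either direction (background 0.0% each way; limma, Benjamini-Hochberg over 20537 regions, lowest adjusted p = 0.932). At an unadjusted p under 0.05, 0 lncRNA-only regions were higher with KCl and 21 were lower, against a background of 0.0% higher and 1.12% lower over all regions tested. With the replicate number as a block 44 were lower (background 2.48%), and without KCl replicate 1 309 of 1332 were lower (background 20.8%), again with none past the adjusted threshold. The median log2 change in lncRNA-only regions was -0.27, and -0.25 over all regions tested. Simulated 2-fold changes were recovered in 11.96% of changed regions without centring and in 62.0% after median centring, and 4-fold changes in 98.8% and 100%. The simulated heights were drawn as counts with a fixed added noise, and the changed regions were taken from the higher ones. How deposited heights relate to read counts is not known, so these shares do not measure the power of the test in these data.

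With each library centred on its median, 24 lncRNA-only regions were higher and 33 lower at an unadjusted p under 0.05, against backgrounds of 1.97% and 1.67%, and none passed after adjustment (limma, lowest adjusted p = 1.00). Changes relative to the median of all regions were above 0 in 619 lncRNA-only regions and below 0 in 708, with a median of -0.018 on the log2 scale. All 3 KCl heights lay below all 3 untreated heights in 68 of the 1327 regions (5.12%), against 4.14% of all regions tested. The opposite held in 1 (0.0754%), against 0.0292%.

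**Figure D5:**
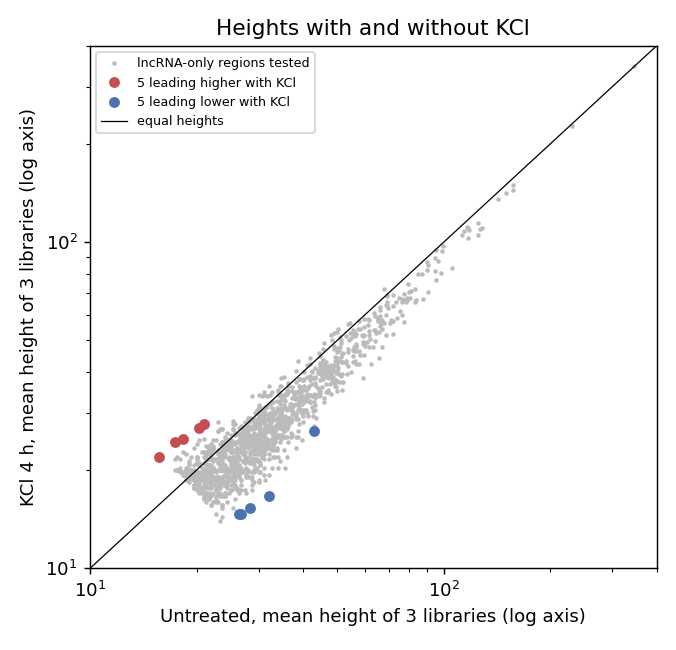
Mean summit height over 3 KCl libraries (vertical, log axis) against that over 3 untreated libraries (horizontal, log axis) for the 1327 lncRNA-only regions tested, with the line of equal heights. Coloured points are the 5 regions with the lowest unadjusted p in each direction, on heights as deposited. Most points lie below the line, and the median log2 change is -0.27.

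The 5 regions with the lowest unadjusted limma p in each direction, on heights as deposited, are given as values, since none passed. They do not all lead on median-centred heights, from which their SE and adjusted p are taken. In that fit the unadjusted limma p was 0.00156 for AY036118, which is not among them, and 0.00399 for Gm38475. Gm41577 (chr17:35591728-35592204) had 35, 24 and 24 with KCl and 20, 20 and 23 without, and was the region in which all KCl heights lay above all untreated ones. Its log2 change relative to the median was 0.61 (SE 0.22, limma on median-centred heights, adjusted p = 1.00). The region in Gm38475 at chr6:145456962-145457469 had 24, 24 and 18 with KCl and 14, 19 and 14 without, with a relative log2 change of 0.71 (SE 0.23). The other regions leading in this direction, in 1700045H11Rik, CJ186046Rik and Gm31624, had relative log2 changes of 0.66, 0.65 and 0.63, and the groups overlapped in each, as they did in Gm38475.

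On the lower side, 1700021L23Rik (chr4:124316174-124316702) had 22, 14 and 14 with KCl and 25, 36 and 35 without, so the groups did not overlap. Its relative log2 change was -0.67 (SE 0.22, limma on median-centred heights, adjusted p = 1.00). Gm29879 (chr3:38671913-38672531) had 37, 31 and 11 with KCl and 43, 48 and 38 without, also apart, with a relative log2 change of -0.59. Gm36568 had 13, 17 and 16 with KCl and 24, 37 and 24 without, again with no overlap. In Gm36894 and Gm34483 a KCl height equalled an untreated one, and the relative log2 changes were -0.62 and -0.56.

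Calls confined to 1 condition were mostly untreated calls, as in the whole table. Regions called in all 3 KCl libraries and in no untreated library numbered 4 (0.0428% of the 9349; background 0.0367%), in LOC115487369, 4930555G07Rik, Gm40763 and Gm35551. That in LOC115487369 had 19, 10 and 10 with KCl, and that in 4930555G07Rik had 14, 14 and 11. Regions called in all 3 untreated libraries and in no KCl library numbered 105 (1.12%; background 1.01%). The highest of these lay in Gm36750 (chr10:60889804-60890344), with 23, 26 and 21 in the untreated libraries, followed by Gm33809, Gm30615, Gm19859 and Gm41582. With the same number of highest intervals from each library, the counts were 16 for KCl (0.404%; background 0.421%) and 25 for untreated (0.632%; background 0.459%) of 3957 lncRNA-only regions.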

How the data were processed

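MeDIP-seq signal was compared between 3 KCl and 3 untreated libraries, grouped by the labels. Library construction and read analysis were done by a service company, per the labels' protocols. The submitters' processing notes name BWA, SICER and the build mm10, with no versions. The authors deposited 13 tracks, per the file headers, which give for each library the called intervals and a summit height for each, and for all libraries the active regions. Heights are whole numbers of at least 6, an enrichment signal in other units than counts, and their scaling between libraries is not given in the sources used here. Without read totals the depth of each library is unknown and counting error cannot be stated. The test planned for signal values was used.

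Each active region took the highest summit per library. Gene positions, promoter windows and miRNAs came from RefSeq GRCm38.p6 (the assembly of mm10), without exons. Coordinates are 1-based. The members, lists and tests were chosen with earlier results of these data known, and the promoter and protein-coding comparisons were added after the data were seen. Heights were tested as log2(height + 1) with limma 3.58.1 in R 4.3.3 (intensity trend, mean heights below the 25th percentile left out, threshold 0.05, two-sided), on all chromosomes. Fold changes on that scale understate changes of low regions. Values per library were tested by exact permutation (scipy 1.17.1), with Benjamini-Hochberg adjustment over 6 comparisons between classes and over 3 of KCl. The 6 include the promoter and protein-coding comparisons, and without these no planned comparison between classes would have an adjusted p under 0.05. The limma fit was tested on data simulated as counts.

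Samples with the same replicate number correlated in their deviations at 0.113, 0.108 and 0.114 over 20537 regions, and different numbers at -0.0882 to -0.0137. All 3 exceeded the limit of 0.1. The main tests did not take the numbers as pairs, and pairs entered only as alternatives (a replicate block, or libraries of 1 number averaged). What a number stands for is not recorded in the labels. Named regions were the 10 highest, the 5 with the lowest p in each direction, those called in 1 condition alone (up to 5 a direction), the genes with most regions, and regions of the gene lists, of which those described were chosen after their values were seen. Promoters shown were chosen by height and CpG number after the values were seen. Alternatives were other height minimums, distances, overlaps, pseudocounts, filters, equal interval numbers, median centring, a replicate block and leaving out each replicate.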

Additional observations from a re-analysis of the deposited data

How the results depend on the processing

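The difference in share called between lncRNA-only and intergenic regions, 0.296 points, was 0.755 (exact p = 0.031) at 20 kb from protein-coding genes and -0.0229 (exact p = 0.844) for regions lying mostly inside lncRNA genes. The difference in median height was 0 at heights of 12 or more and with equal interval numbers. The log2 density ratio reversed to -0.0847 against intergenic sequence within 50 kb of a lncRNA gene. The difference at ends of RIKEN testis clones was 0.413 at heights of 12 or more (exact p = 0.406) and 0.987 with equal interval numbers (exact p = 0.0625), and 3.30 within 250 bp of an end. The difference from protein-coding regions was -2.55 with equal interval numbers. The CpG-rich promoter difference kept its direction and passed in the 6 other settings tried, from 8.06 points with equal interval numbers to 15.2 at 20 kb. Without 1 replicate the exact sign-flip test cannot go below p = 0.0625, and the values ranged from 0.49 to 0.49 for the log2 density ratio, from 1.01 to 1.63 points for testis clones, from -3.19 to -2.72 for protein-coding regions, from 13.3 to 15.4 for CpG-rich promoters, from 0.0606 to 0.51 for intergenic regions and from 0.4 to 0.6 for median height. Without 1 replicate the KCl difference ranged from -29.7 to -4.23 points for the share called and from -7.67 to -0.167 for median height. With the replicate block the exact p was 0.5 for both, where 0.25 is the smallest possible. Averaging libraries of the same number into pairs, an alternative added after the data were seen, left the values at 0.49 (log2 density ratio), 1.42 (testis clones), -3.11 (protein-coding regions) and 14.1 points (CpG-rich promoters), each with an exact p of 0.25, and gave 0.5 for both comparisons with intergenic regions. No lncRNA-only region passed limma at any setting, and the lowest adjusted p was 0.173, without KCl replicate 1, where 309 of 1332 were lower at an unadjusted p under 0.05, against 20.8% of all 20796 regions tested. The replicate block gave 0 calls (limma, lowest adjusted p = 0.857) and 44 of 1327 regions lower at an unadjusted p under 0.05, against 2.48% of all regions tested, and with median centring the lowest adjusted p was 0.787. The cause of these changes was not tested. Unknown depth limits all statements on regions that a library did not call.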
